A study of Dugesia japonica with 18 samples.

Results

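The genes described here are unigenes (assembled transcripts) of the planarian Dugesia japonica that the deposited protein descriptions name as forkhead, Sox, T-box, GATA, basic helix-loop-helix (bHLH), nuclear receptor or Ets transcription factors. A unigene was taken when its recommended Swiss-Prot name held a name of these families and it reached a CPM (counts scaled to a common library size) of 1 in at least 3 libraries. The names occurred on 40 unigenes, of which 37 passed that level, out of 23616 unigenes tested and 267235 in the file. They comprised 15 forkhead, 5 Sox, 4 T-box, 4 GATA, 3 bHLH, 5 nuclear receptor unigenes and 1 Ets unigene. Silk gland factor 1, a forkhead protein by its family, was left out by the rule.

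Forkhead, Sox, T-box and GATA proteins each bind DNA through a domain that names their family, and the same domain families specify tissues throughout animals. bHLH proteins bind as dimers and include neural fate factors and targets of Notch, while nuclear receptors are transcription factors of which many are switched by small ligands. In planarians, stem cells called neoblasts replace lost tissue, and in Schmidtea mediterranea several Sox, GATA and forkhead genes mark neoblasts already set toward skin, gut, muscle or nerve.

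Cut animals gave fragments of head, trunk and tail, each sampled on labelled days 0, 1, 3, 5, 7 and 10. The labels name no strain, genotype, age or treatment, and they do not say what day 0 is. Each of the 18 libraries came from the mixed RNA of a pool of 10 to 20 animals, and there was 1 library per fragment and day. The question in the series title is how the head-to-tail axis is specified.

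Fragments were compared over their 6 libraries each with day as a block, so that the other days stood in for replicates. Late days (5, 7 and 10) were compared with early days (0, 1 and 3) within a fragment. Levels below are CPM after scaling by the TMM method (normalised CPM), and they are not corrected for length, so they compare libraries and not genes. A fold change between fragments divides the first named by the second. Values after ± are SE for log2 fold changes and SD for levels, and adjusted p-values come from edgeR's quasi-likelihood test with Benjamini-Hochberg adjustment over all 23616 unigenes. The p-values measure deviations among these pools and not the spread between animals. In whole fragments, fewer cells of a type and less RNA per cell cannot be told apart.

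The libraries held 17547716 to 21229980 counts each, and the floor for detection, 3 counts, was 0.107 to 0.252 normalised CPM. The most abundant unigene held 13.0 to 49.6% of the counts, most in tail, so the choice of scaling matters. Scaling by library totals moved the median log2 fold change of all unigenes to 0.71 between head and tail, 0.30 between head and trunk and 0.39 between trunk and tail. Directions below are therefore relative to the bulk of unigenes. The head libraries held the most RNA of 36 neuronal marker unigenes, whose summed level was 1552 to 1783 normalised CPM in head, 592.5 to 805.1 in trunk and 754.5 to 1282 in tail. Summed over 8 intestinal marker unigenes, the level was 1895 to 3341 in trunk, 774.1 to 1428 in head and 406.7 to 904 in tail. The 3 pharynx and secretory names summed to 212 to 460.5 in head and 89.42 to 142.4 in trunk. Yet between head and trunk 1 of them was higher in head and 1 lower, beside 19.6% and 22.7% of all unigenes. In trunk 2 of the 3 were higher than in tail, beside 18.3% of all unigenes.

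Between head and tail, 16 of the 37 factors differed, 7 higher in head and 9 higher in tail. The background was 39.2% of all unigenes (19.5% higher in head and 19.6% lower), and the 16 were 43.2% of the factors. Between head and trunk 20 factors differed, 11 higher in head and 9 lower, against 42.3% of all unigenes (19.6% and 22.7%). Between trunk and tail 21 differed, 7 higher in trunk and 14 lower, against 36.7% of all unigenes (18.3% and 18.4%). The median log2 fold change of the 37 was -0.00 between head and tail, 0.15 between head and trunk and -0.22 between trunk and tail, beside 0.02, 0.00 and -0.01 for all unigenes. Values of the 2 fragments did not overlap for 6 factors between head and tail, 12 between head and trunk and 7 between trunk and tail, beside 15.0%, 21.3% and 14.2% of all unigenes. With library totals as the scale the splits were 26 higher and 3 lower, 20 and 5, and 12 and 1, where 72.7%, 49% and 45.7% of all unigenes were called. With totals that leave out the most abundant unigene they were 14 and 4, 23 and 5, and 4 and 17, where 46.3%, 56.4% and 37.3% of all unigenes were called.

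In all, 29 of 37 factors differed in at least 1 of these comparisons and 6 in all 3, beside 63.1% and 8.62% of all unigenes. By mean level, which depends on the scaling, head was highest for 15 factors, trunk for 8 and tail for 14. No share over all unigenes was computed for these counts, so they describe no trait particular to the factors. Those above both other fragments numbered 5 in head (2 FoxD3 unigenes, FoxF1-B, a FoxK1 and Sox-2), 3 in trunk (sem-2, GATA-4 and nuclear receptor 2F5) and 6 in tail (a FoxJ1.2, sox-2, a TBX3, GATA-binding factor 2, an NR4A1 and the Ets factor SPDEF). Over all unigenes these shares were 10.9%, 10.8% and 9.78%. The FoxD3 unigene DN27024 would not have passed the level filter without its head libraries, so its place among the 5 is not independent of that filter.

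**Figure D1:**
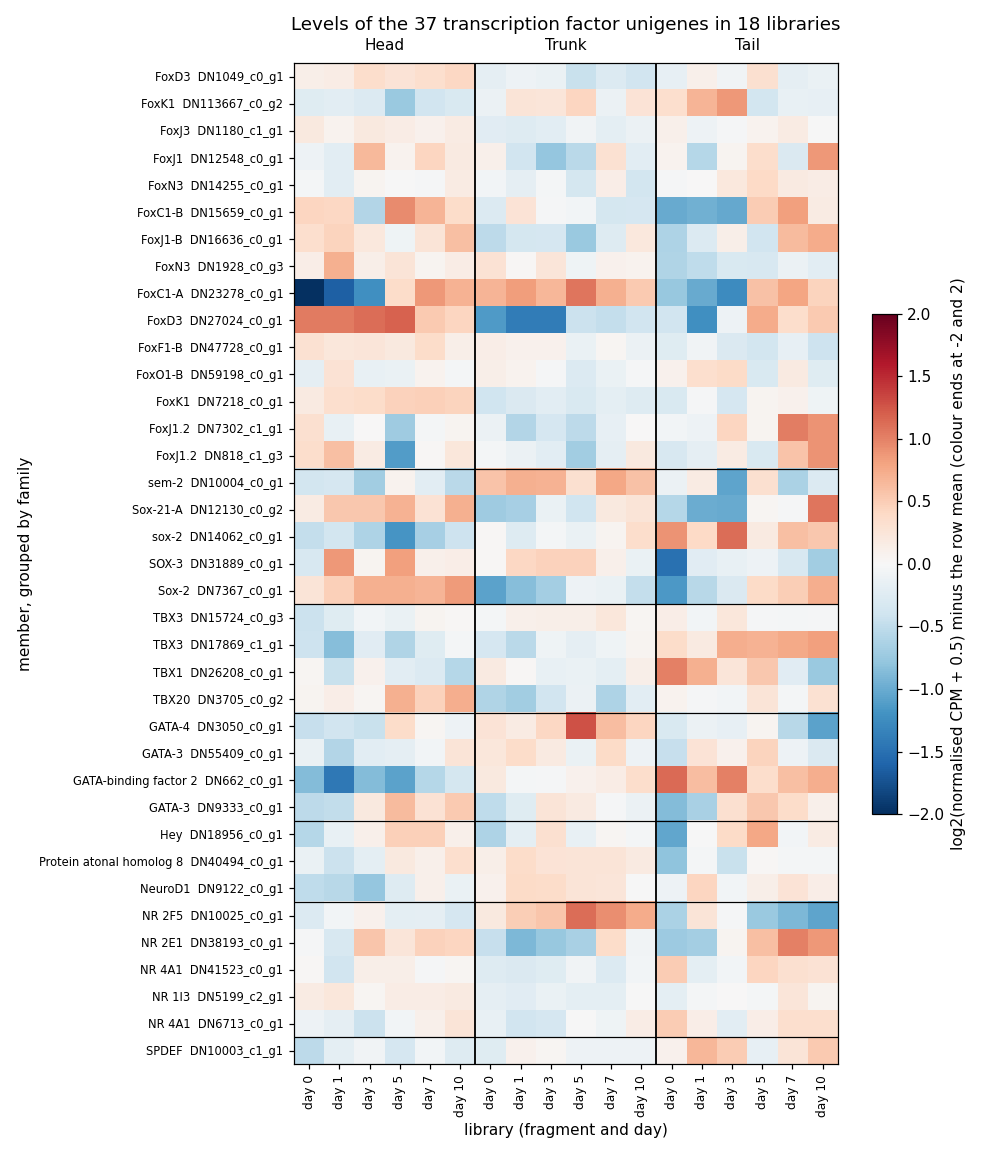
Level of each of the 37 factors (rows, grouped by family) in each of the 18 libraries (columns, by fragment and day), as log2(normalised CPM + 0.5) minus the row mean. Red is above and blue below the row mean. FoxC1-A is low in head and tail on days 0 to 3, and GATA-binding factor 2 runs from blue in head to red in tail.

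Among the forkhead factors, which share a winged-helix DNA-binding domain, 7 of 15 (46.7%, beside 39.2% of all unigenes) differed between head and tail, 5 of them higher in head. FoxF1-B (DN47728, closest to forkhead box F2 of S. mediterranea) belongs to a family that in S. mediterranea specifies muscle outside the body wall. Its level was 50.9, 48.3, 48.5, 46.8, 52.8 and 44.5 normalised CPM in head on days 0 to 10, 44.8, 43.5, 43.3, 37.3, 41.9 and 37.8 in trunk, and 34.5, 38.9, 33.4, 31.8, 36.5 and 30.8 in tail. Head and tail did not overlap, and both overlapped with trunk. The log2 fold change was 0.50 ± 0.06 (adjusted p = 1.11e-05) between head and tail, 0.23 ± 0.06 (adjusted p = 0.00765) between head and trunk and 0.27 ± 0.06 (adjusted p = 0.00363) between trunk and tail, a level that fell in order from head to tail. Of 23 muscle marker unigenes, 15 were lower in head than in tail and 2 higher, beside 19.6% and 19.5% of all unigenes. The part of these markers in the FoxF1-B values was not tested.

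FoxK1 (DN7218, closest to forkhead box K2), of a group known in mammals to repress autophagy genes, was 49.8, 55.6, 56.9, 60.8, 61.2 and 59.8 normalised CPM in head on days 0 to 10, 33.0, 35.6, 37.9, 35.4, 38.2 and 36.4 in trunk, and 35.2, 43.1, 34.6, 45.6, 46.8 and 41.1 in tail. All 6 head libraries lay above all trunk and tail libraries. It was 1.58 times as high in head as in trunk (log2 fold change 0.66 ± 0.07, adjusted p = 1.6e-06) and 1.40 times as high as in tail (log2 fold change 0.48 ± 0.07, adjusted p = 4.53e-05). The other FoxK1 unigene (DN113667, closest to forkhead box K3) went the other way and is described with the changes over days.

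FoxD factors mark the anterior pole of S. mediterranea, a small group of muscle cells at the head tip. The FoxD3 unigene DN27024 had 2.19, 2.21, 2.35, 2.47, 1.38 and 1.27 normalised CPM in head on days 0 to 10, 0.102, 0, 0, 0.471, 0.441 and 0.503 in trunk, and 0.504, 0.0638, 0.730, 1.71, 1.17 and 1.39 in tail. Its head values lay above all trunk values, where 2 libraries held no count and the highest held 9 counts, and they overlapped with tail. This unigene reached 1 CPM in 8 libraries, namely every head library and tail days 5 and 10. It passed the level filter only through these, and would not have passed it without the head libraries. Its differences between head and tail, head and trunk, and trunk and tail are therefore not independent of that filter. On the log2 scale the fold change was 3.02 ± 0.52 (adjusted p = 0.000168) between head and trunk, 1.13 ± 0.43 (adjusted p = 0.0457) between head and tail and -1.89 ± 0.64 (adjusted p = 0.0278) between trunk and tail. The other FoxD3 unigene (DN1049), closest to a winged helix factor of D. japonica, was 20.4, 20.9, 24.0, 22.9, 23.9 and 25.1 normalised CPM in head on days 0 to 10, 16.6, 17.6, 17.1, 13.6, 15.5 and 14.3 in trunk, and 16.8, 20.2, 17.9, 23.6, 16.5 and 17.1 in tail. It was higher in head than in trunk on 6 of 6 days with no overlap (log2 fold change 0.54 ± 0.10, adjusted p = 0.000551) and than in tail on 5 of 6 days (log2 fold change 0.29 ± 0.11, adjusted p = 0.0351).

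The head against tail call of DN27024 was kept only on leaving out head day 5, 7 or 10, trunk day 1, 3 or 10, or tail day 10, with adjusted p of 0.0510 to 0.119 in the other 11 cases. Its trunk against tail call was lost without trunk day 0 or 3 or tail day 5, 7 or 10 (adjusted p 0.0601 to 0.0741), and the head against tail call of DN1049 without head day 3, 7 or 10 or tail day 0, 3, 7 or 10 (adjusted p 0.0563 to 0.102).

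FoxJ1 factors drive the genes of motile cilia in vertebrates and in S. mediterranea. FoxJ1-B (DN16636, closest to J1-like protein 4) was 34.4, 36.8, 31.5, 25.6, 32.6 and 41.5 normalised CPM in head on days 0 to 10, 18.6, 21.0, 21.3, 16, 22.4 and 31.3 in trunk, and 17.5, 22.3, 29.5, 20.6, 42.1 and 45.7 in tail. Head and trunk overlapped through head day 5 and trunk day 10, yet head was higher on 6 of 6 days (log2 fold change 0.66 ± 0.13, adjusted p = 0.000715). Trunk was lower than tail on 5 of 6 days (log2 fold change -0.41 ± 0.13, adjusted p = 0.0247), a call lost without trunk day 7 or tail day 3, 7 or 10 (adjusted p 0.0586 to 0.0911). FoxJ1.2 (DN7302, closest to J1-like protein 1) averaged 5.02 ± 1.19 normalised CPM in head, 4.25 ± 0.766 in trunk and 7.33 ± 2.76 in tail (n = 6), and was lower in trunk than in tail on 6 of 6 days (log2 fold change -0.77 ± 0.18, adjusted p = 0.00276). Its log2 fold change between head and tail of -0.53 ± 0.17 (adjusted p = 0.0211) turned to 0.15 with library totals, and its call was lost without head day 5, 7 or 10 or tail day 7 or 10 (adjusted p 0.0604 to 0.0845). The other FoxJ1.2 (DN818) and FoxJ1 (DN12548), which only just passed the level filter with 3 libraries at 1 CPM, passed no test. Of 35 cilia marker unigenes, 13 were lower in head than in tail and 1 was higher, beside 19.6% and 19.5% of all unigenes. Between head and trunk 4 were higher and 7 lower in head (19.6% and 22.7% of all unigenes). Between trunk and tail 1 was higher and 8 lower in trunk (18.3% and 18.4%), and 8 of 35 were called over days (5.83%). The summed level of the 35 was 1191 to 1932 normalised CPM in head, 1419 to 2021 in trunk and 1468 to 2634 in tail. Its part in the FoxJ1 values was not tested.

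The FoxN and FoxJ3 unigenes, all closest to the N2/3 group of S. mediterranea, differed among themselves. FoxN3 (DN1928) averaged 13.1 ± 2.57 normalised CPM in head, 11.8 ± 1.21 in trunk and 8.54 ± 1.14 in tail (n = 6), with tail below head and trunk with no overlap (log2 fold change 0.61 ± 0.14, adjusted p = 0.00180 between head and tail and 0.47 ± 0.14, adjusted p = 0.0141 between trunk and tail). The second FoxN3 (DN14255) averaged 15.6 ± 1.36 normalised CPM in head, 14.3 ± 1.99 in trunk and 17.6 ± 1.92 in tail (n = 6), and trunk was lower than tail on 6 of 6 days (log2 fold change -0.30 ± 0.10, adjusted p = 0.0329). FoxJ3 (DN1180) averaged 49.0 ± 1.91 normalised CPM in head, 39.1 ± 1.98 in trunk and 45.5 ± 3.13 in tail (n = 6), higher in head than in trunk with no overlap (log2 fold change 0.33 ± 0.07, adjusted p = 0.000665) and lower in trunk than in tail (log2 fold change -0.22 ± 0.07, adjusted p = 0.0170). With library totals the trunk against tail value turned to 0.10 for DN14255 and to 0.18 for FoxJ3. The former call was lost without trunk day 3, 5 or 10 or tail day 1, 5 or 10 (adjusted p 0.0530 to 0.0967), and the latter without tail day 7 (adjusted p 0.0565). FoxO1-B, a target of insulin signalling in many animals, averaged 34.2 ± 4.58 normalised CPM in head, 33.6 ± 3.29 in trunk and 37 ± 7.21 in tail (n = 6) and passed no test. FoxF1-B has a further unigene (DN21268) that stayed under the filter, at 0.529 CPM at most.

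**Figure D2:**
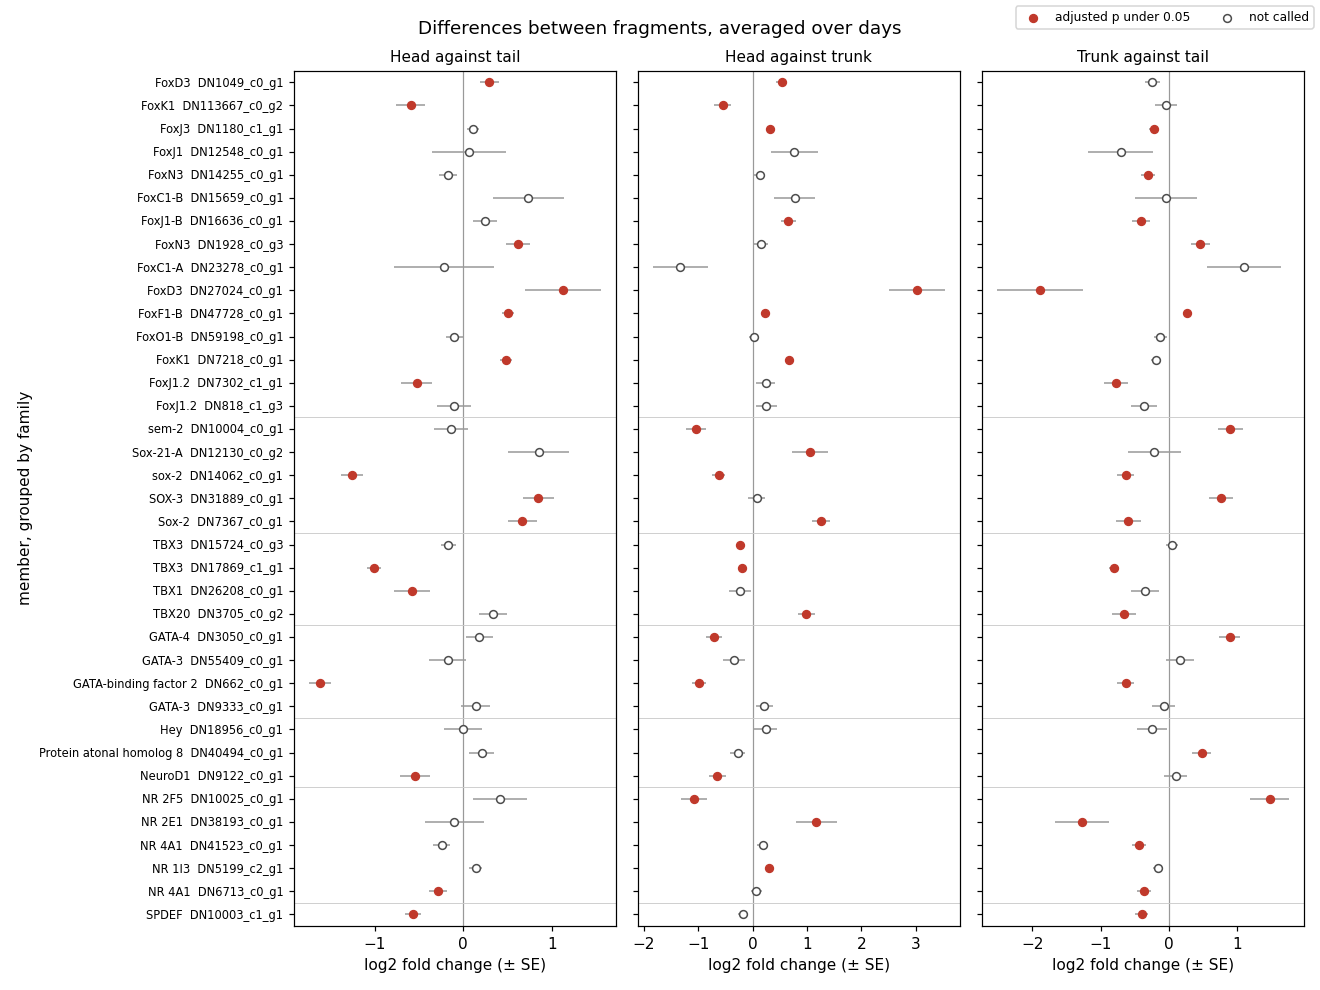
log2 fold change with SE for each factor (rows, by family) in head against tail, head against trunk and trunk against tail (panels, 6 libraries per fragment). Filled points have an adjusted p under 0.05. Called values run from -1.89 for FoxD3 DN27024 in trunk against tail to 3.02 for the same unigene in head against trunk. That unigene reached 1 CPM in no trunk library.

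Of the 5 Sox factors, relatives of the mammalian testis and stem cell factors, 4 differed between head and trunk and 4 between trunk and tail, beside 42.3% and 36.7% of all unigenes. The unigene named sox-2 (DN14062) is closest to soxB of D. japonica, and SoxB genes are linked to neural and sensory cells in many animals. Its level was 50.7, 54.6, 46.0, 31.1, 44.4 and 53.0 normalised CPM in head on days 0 to 10, 71.6, 59.0, 68.8, 64.5, 73.3 and 90.8 in trunk, and 132, 94.0, 155, 80.3, 107 and 103 in tail. Head lay below trunk and below tail on every day with no overlap. Its log2 fold change was -1.26 ± 0.12 (adjusted p = 1.01e-06) between head and tail, -0.62 ± 0.12 (adjusted p = 0.000661) between head and trunk and -0.63 ± 0.12 (adjusted p = 0.000868) between trunk and tail, so the level rose in order from head to tail. Neuronal marker unigenes numbered 36, with 17 higher and 6 lower in head than in tail, beside 19.5% and 19.6% of all unigenes. The part of these markers in the sox-2 values was not tested.

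Sox-2 (DN7367, closest to SRY-related HMG box B-1 of D. japonica) was highest in head. Its level was 8.18, 9.63, 11.4, 11.4, 11.2 and 12.7 normalised CPM in head on days 0 to 10, 2.96, 3.55, 4.03, 6.29, 6.17 and 4.75 in trunk, and 2.77, 4.47, 5.44, 9.04, 9.72 and 11.5 in tail. Every head library lay above every trunk library, and the late tail libraries reached the head range. The corresponding log2 fold change was 1.26 ± 0.17 (adjusted p = 1.41e-05) between head and trunk, 0.67 ± 0.17 (adjusted p = 0.00411) between head and tail and -0.59 ± 0.18 (adjusted p = 0.0153) between trunk and tail, and the last call was lost without trunk day 10 or tail day 10 (adjusted p 0.0518 to 0.0577). Of the 36 neuronal marker unigenes, 22 were higher in head than in trunk and 6 lower, beside 19.6% and 22.7% of all unigenes. Whether the Sox-2 level follows the amount of neurons was not tested.

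The unigene named sem-2, after the SoxC gene of Caenorhabditis elegans, is closest to SOXP-3, which in S. mediterranea marks neoblasts set toward epidermis. It had 4.47, 4.57, 3.47, 6.24, 5.03 and 3.93 normalised CPM in head on days 0 to 10, 9.05, 9.98, 9.89, 7.54, 10.4 and 9.11 in trunk, and 5.38, 6.70, 2.60, 7.49, 3.65 and 4.79 in tail. All 6 trunk libraries lay above all head and tail libraries. The level in trunk was 2.06 times that of head (log2 fold change of head against trunk -1.04 ± 0.18, adjusted p = 0.000166) and 1.88 times that of tail (log2 fold change 0.91 ± 0.19, adjusted p = 0.00119). SOX-3 (DN31889) is closest to SOXP-2, a marker of the sigma class of neoblasts in S. mediterranea, and had 3.67, 8.95, 4.89, 8.67, 5.12 and 5.23 normalised CPM in head on days 0 to 10, 4.80, 6.42, 6.68, 6.65, 5.07 and 4.25 in trunk, and 1.34, 3.96, 4.22, 4.37, 3.65 and 2.71 in tail. Tail was the lowest on 6 of 6 days, with some overlap (log2 fold change 0.84 ± 0.17, adjusted p = 0.000928 between head and tail and 0.77 ± 0.18, adjusted p = 0.00278 between trunk and tail). Of 17 stem cell marker unigenes, 8 were lower in head than in trunk and 5 higher in trunk than in tail, beside 22.7% and 18.3% of all unigenes. Between head and tail 0 of the 17 were called by edgeR, beside 39.2% of all unigenes, and 3 of the 17 had an unadjusted p under 0.05. The summed level of the 17 was 490 to 915.1 normalised CPM in head, 697.4 to 1215 in trunk and 534.5 to 840 in tail. Its part in the sem-2 and SOX-3 values was not tested.

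T-box factors pattern mesoderm, heart and limbs in vertebrates, and their number here was 4. TBX3 (DN17869, closest to T-box 2/3c) was 18.6, 13.6, 21.3, 16.3, 21.0 and 24.1 normalised CPM in head on days 0 to 10, 19.6, 16.9, 23.4, 21.9, 23.3 and 26 in trunk, and 32.2, 28.4, 41.6, 40.5, 42.5 and 44.5 in tail. Tail lay above head and trunk on all days with no overlap. Its log2 fold change was -1.0 ± 0.08 (adjusted p = 5.77e-08) between head and tail and -0.81 ± 0.08 (adjusted p = 1.39e-06) between trunk and tail. Head and trunk differed less (log2 fold change -0.20 ± 0.08, adjusted p = 0.0433), and that value turned to 0.10 with library totals and to 0.16 with totals without the most abundant unigene. The call of this last difference was kept only on leaving out head day 0 or head day 10, with adjusted p of 0.0506 to 0.138 otherwise.

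The second TBX3 (DN15724, closest to T-box 2/3a) differed far less, at 16.8, 19.2, 21.8, 20.8, 23.8 and 23.2 normalised CPM in head on days 0 to 10, 22.2, 24.3, 24.7, 24.7, 26.8 and 23.3 in trunk, and 25.0, 21.9, 26.8, 22.5, 22.1 and 22.5 in tail. The fragments overlapped, and the log2 fold change between head and trunk was -0.22 ± 0.09 (adjusted p = 0.0490), which turned to 0.08 and 0.14 under the same scalings. The call held only on leaving out head day 7 or 10 or tail day 0 or 7 (adjusted p 0.0529 to 0.148 otherwise). TBX20, known from the heart and motor neurons of vertebrates, had 2.32, 2.46, 2.30, 3.93, 3.25 and 3.97 normalised CPM in head on days 0 to 10, 1.28, 1.17, 1.58, 1.99, 1.27 and 1.84 in trunk, and 2.35, 2.17, 2.11, 2.74, 2.14 and 2.84 in tail. Trunk lay below head and below tail with no overlap (log2 fold change 0.99 ± 0.16, adjusted p = 9.73e-05 between head and trunk and -0.65 ± 0.18, adjusted p = 0.00827 between trunk and tail).

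TBX1, a pharyngeal patterning factor in vertebrates, was 6.32, 4.39, 6.55, 5.28, 4.98 and 3.97 normalised CPM in head on days 0 to 10, 7.05, 6.28, 5.5, 5.55, 5.34 and 6.76 in trunk, and 12.9, 10.4, 7.38, 9.19, 5.17 and 3.47 in tail. The tail libraries of days 0 to 5 lay above all head and trunk libraries, and those of days 7 and 10 did not. Here the log2 fold change between head and tail was -0.58 ± 0.20 (adjusted p = 0.0283), and turned to 0.13 with library totals. It was no longer called without head or tail day 0, 1 or 5 (adjusted p 0.0585 to 0.105).

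GATA factors are zinc-finger proteins, of which the 4/5/6 class acts in the gut of many animals and the 1/2/3 class in blood of vertebrates. GATA-binding factor 2 (DN662, closest to GATA123b) had the largest log2 fold change of the 16 factors called between head and tail. Its level was 35.7, 24.0, 35.6, 30.9, 44.3 and 51.3 normalised CPM in head on days 0 to 10, 75.5, 64.2, 64.7, 70.2, 72.8 and 83.6 in trunk, and 145, 101, 132, 83.8, 100 and 109 in tail. No pair of fragments overlapped, with head lowest and tail highest on every day. Tail was 3.07 times head (log2 fold change -1.62 ± 0.13, adjusted p = 1.11e-07), trunk was 1.98 times head (-0.98 ± 0.13, adjusted p = 1.2e-05), and trunk against tail gave -0.63 ± 0.12 (adjusted p = 0.000926).

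GATA-4 (DN3050, closest to GATA456, which in S. mediterranea is needed for intestine) was 12.7, 13.4, 12.8, 23.0, 18.1 and 16.5 normalised CPM in head on days 0 to 10, 21.4, 19.9, 23.7, 43.7, 27.4 and 24.1 in trunk, and 14.2, 16.2, 15.7, 18.4, 11.8 and 8.14 in tail. Trunk lay above tail with no overlap and above head on every day. The log2 fold change was -0.71 ± 0.15 (adjusted p = 0.000885) between head and trunk and 0.89 ± 0.15 (adjusted p = 0.000257) between trunk and tail. Of 8 intestinal marker unigenes 7 were higher in trunk than in tail, beside 18.3% of all unigenes. Between head and trunk 2 of the 8 were higher and 4 lower in head, beside 19.6% and 22.7% of all unigenes. The part of intestinal tissue in the GATA-4 values was not tested. The GATA-3 unigene DN9333 (closest to GATA456-2) averaged 3.99 ± 1.44 normalised CPM in head, 3.35 ± 0.735 in trunk and 3.64 ± 1.46 in tail (n = 6) and was called over days and in no fragment comparison. The GATA-3 unigene DN55409 (closest to GATA123a) averaged 3.51 ± 0.757 normalised CPM in head, 4.43 ± 0.747 in trunk and 3.96 ± 1.05 in tail (n = 6) and passed no test.

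**Figure D3:**
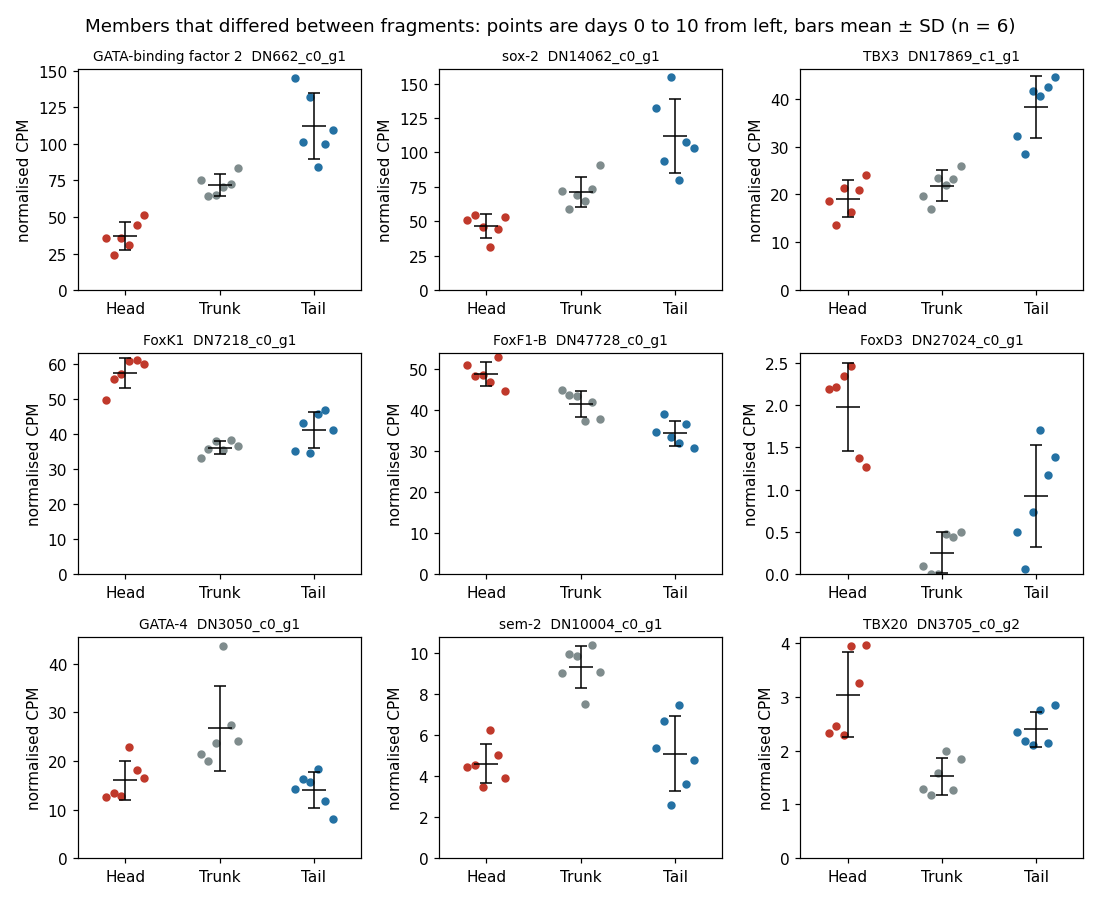
Normalised CPM of 9 factors in each library, by fragment, with days 0 to 10 from left to right in each group and bars for mean ± SD (n = 6). GATA-binding factor 2 and sox-2 rise from head to tail, TBX3 DN17869 is higher in tail than in head and trunk, FoxF1-B falls, and GATA-4 and sem-2 peak in trunk.

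Of the 3 bHLH factors, NeuroD1 (DN9122), a neuronal differentiation factor in vertebrates, was 2.53, 2.42, 2.0, 3.08, 4.14 and 3.41 normalised CPM in head on days 0 to 10, 4.09, 5.11, 5.05, 4.66, 4.57 and 3.80 in trunk, and 3.53, 5.30, 3.65, 4.15, 4.69 and 4.23 in tail. Head was below trunk and below tail on 6 of 6 days, with overlap at head day 7 (log2 fold change -0.65 ± 0.16, adjusted p = 0.00384 and -0.55 ± 0.17, adjusted p = 0.0162). Of the 36 neuronal marker unigenes, 17 were higher in head than in tail and 6 lower, beside 19.5% and 19.6% of all unigenes. The head against tail value turned to 0.14 with library totals, and its call was lost without head day 1 or tail day 1 (adjusted p 0.0531 to 0.0546). Atonal homolog 8 (DN40494), of the family of proneural atonal factors, was 6.62, 5.24, 6.30, 8.40, 7.83 and 9.28 normalised CPM in head on days 0 to 10, 7.92, 9.54, 8.92, 8.80, 8.81 and 8.27 in trunk, and 3.95, 7.02, 5.19, 7.41, 7.10 and 7.07 in tail. Every trunk library lay above every tail library (log2 fold change 0.48 ± 0.14, adjusted p = 0.0149). The third, a Hairy-related unigene closest to hesl-3 and of a family of Notch targets, averaged 1.93 ± 0.626 normalised CPM in head, 1.62 ± 0.437 in trunk and 1.96 ± 0.911 in tail (n = 6) and passed no test.

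Partners of bHLH factors and the Notch pathway, found by protein name, gave 17 tested unigenes. In head against tail 5 were higher and 3 lower, in head against trunk 3 and 2, and in trunk against tail 2 and 2. Of all unigenes, 39.2%, 42.3% and 36.7% were called in these comparisons. In the 5 tests over days 0 of the 17 changed by edgeR, beside 0 to 5.83% of all unigenes (0 to 4 of the 17 had an unadjusted p under 0.05). The median log2 fold change of the 17 was 0.03, 0.08 and 0.04 between fragments, beside 0.02, 0.00 and -0.01 for all unigenes. Transcription factor 12 (DN129), the E protein partner of bHLH factors and closest to the da protein of S. mediterranea, had 59.5 ± 4.11 normalised CPM in head, 80.3 ± 2.0 in trunk and 79.7 ± 4.05 in tail (n = 6). Its head level was lower than both others (log2 fold change -0.44 ± 0.06 against trunk, adjusted p = 3.68e-05, and -0.42 ± 0.06 against tail, adjusted p = 5.86e-05). Numb (DN26177), an inhibitor of Notch, was higher in head, at 21.5 ± 1.76, against 13.4 ± 1.31 in trunk and 12.6 ± 1.77 in tail (log2 fold change against tail 0.77 ± 0.09, adjusted p = 5.45e-06). The other Numb unigene (DN4057) was not called between head and tail (log2 fold change -0.08 ± 0.10, adjusted p = 0.533). Nor was it called between head and trunk (-0.16 ± 0.09, adjusted p = 0.183). A Ligand of Numb protein X 2 (DN21887) was higher in head than in trunk (log2 fold change 1.04 ± 0.20, adjusted p = 0.000442). The other unigenes of that name (DN141, DN1756 and DN44984) were not called between head and trunk. Strawberry notch homolog 1 (DN8152_c0_g1), caught by its name, was also higher in head than in trunk (0.44 ± 0.08 on the log2 scale, adjusted p = 0.000224). A further unigene of that name (DN8152_c0_g2) was not called (-0.28 ± 0.17, adjusted p = 0.196).

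The 5 nuclear receptors are ligand-regulated or orphan receptors. NR2F5 (DN10025), of the COUP-TF group, was 1.22, 1.5, 1.71, 1.31, 1.33 and 1.15 normalised CPM in head on days 0 to 10, 1.89, 2.43, 2.55, 4.03, 3.47 and 2.96 in trunk, and 0.840, 1.98, 1.54, 0.741, 0.620 and 0.505 in tail. All trunk values lay above the head values, and tail day 1 reached into the trunk range. On the log2 scale the fold change was -1.07 ± 0.24 (adjusted p = 0.00185) between head and trunk and 1.48 ± 0.28 (adjusted p = 0.000655) between trunk and tail. NR1I3, which in mammals senses foreign compounds, was 53.1, 55.4, 49.0, 52.8, 52.6 and 53.6 normalised CPM in head on days 0 to 10, 42.0, 40.8, 43.3, 41.4, 41.6 and 47.5 in trunk, and 41.4, 46.4, 47.8, 46.5, 56.0 and 49.5 in tail. Head exceeded trunk with no overlap (log2 fold change 0.30 ± 0.07, adjusted p = 0.00260).

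NR4A factors act in S. mediterranea muscle at the ends of the body axis. The NR4A1 unigene DN41523 had 16.9, 12.6, 18, 18.1, 16.3 and 17.0 normalised CPM in head on days 0 to 10, 13.7, 13.5, 13.9, 15.8, 13.7 and 15.9 in trunk, and 23.7, 14.4, 16, 22.5, 20.9 and 20.3 in tail. In DN6713 the levels were 9.06, 8.52, 7.09, 9.29, 10.4 and 11.7 normalised CPM in head on days 0 to 10, 8.74, 7.35, 7.59, 9.69, 9.15 and 10.8 in trunk, and 13.9, 10.7, 8.36, 10.7, 12.4 and 12.4 in tail. Tail was above trunk on 6 of 6 days in both, with overlap (log2 fold change of trunk against tail -0.43 ± 0.10, adjusted p = 0.00278 for DN41523 and -0.36 ± 0.10, adjusted p = 0.0115 for DN6713). For DN6713 head was also below tail (log2 fold change -0.29 ± 0.10, adjusted p = 0.0309). With library totals the values of DN6713 turned to 0.04 between trunk and tail and 0.41 between head and tail, and the latter call was lost without head day 0, 3 or 5 or tail day 0, 1 or 7 (adjusted p 0.0578 to 0.121).

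The Ets factor SPDEF (DN10003), known from secretory cells of mammals, was 21.6, 27.5, 29.8, 24.8, 30.1 and 26.1 normalised CPM in head on days 0 to 10, 26.5, 33.1, 32.3, 29.1, 29.0 and 29.2 in trunk, and 33.3, 49.9, 44.7, 27.9, 37.6 and 45.1 in tail. Head was below tail on 6 of 6 days with overlap (log2 fold change -0.57 ± 0.09, adjusted p = 0.000121), and trunk was below tail on 5 of 6 (-0.39 ± 0.09, adjusted p = 0.00312). With library totals the head against tail value turned to 0.13.

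Cofactors of nuclear receptors, with the retinoid receptors, gave 14 tested unigenes. In head against tail 0 were higher and 3 lower, in head against trunk 1 and 4, and in trunk against tail 1 and 1. Of all unigenes, 39.2%, 42.3% and 36.7% were called in these comparisons. Median log2 fold changes of the 14 were 0.00, -0.08 and 0.00, beside 0.02, 0.00 and -0.01 for all unigenes. In the 5 tests over days 0 of the 14 changed by edgeR, beside 0 to 5.83% of all unigenes (0 to 3 of the 14 had an unadjusted p under 0.05). Retinoic acid receptor beta (DN4918), which in vertebrates reads retinoic acid along the body axis, had 39.8 ± 4.41 normalised CPM in head, 76.2 ± 9.0 in trunk and 126 ± 27.2 in tail (n = 6). Its log2 fold change was -1.65 ± 0.09 between head and tail (adjusted p = 8.42e-09), -0.94 ± 0.09 between head and trunk (adjusted p = 7.52e-07) and -0.71 ± 0.09 between trunk and tail (adjusted p = 2.26e-05). RXR-alpha (DN3250), a common partner of such receptors, was slightly higher in head than in trunk (0.27 ± 0.08 on the log2 scale, adjusted p = 0.0131). RXR-gamma (DN98392) was not called in that comparison (-0.07 ± 0.11, adjusted p = 0.639). Nuclear receptor corepressor 1 (DN19464) had a lower level in head than tail (log2 fold change -0.23 ± 0.07, adjusted p = 0.0144), and the mediator subunit 13 (DN5674) higher in trunk than in tail (log2 fold change 0.26 ± 0.08, adjusted p = 0.0179).

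Over time, between early and late days, 6 of the 37 factors changed in tail (5 higher and 1 lower), 1 in head and 0 in trunk. Among all unigenes the shares were 4.59% in tail (3.14% higher and 1.45% lower), 0.606% in head (0.284% higher and 0.322% lower) and 0% in trunk. In trunk 1690 unigenes and 5 factors had an unadjusted p under 0.05 by edgeR. DESeq2 called 0 factors in trunk, beside 0.47% of the unigenes it tested there. Median log2 fold changes of the 37 were 0.18 in tail, 0.16 in head and 0.08 in trunk, beside -0.01, -0.03 and -0.01 for all unigenes. The change differed between fragments for 2 factors, against 1.32% of all unigenes. On any day, averaged over fragments, 4 factors changed, against 5.83% of all unigenes.

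FoxC factors act in mesoderm, blood vessel and eye development in vertebrates. FoxC1-A (DN23278, closest to forkhead box C1) had 0, 0.321, 0.586, 2.81, 4.18 and 3.65 normalised CPM in head on days 0 to 10, 3.58, 4.04, 3.57, 4.87, 3.69 and 3.18 in trunk, and 1.01, 0.766, 0.568, 3.34, 3.93 and 2.96 in tail. In head it was at 0, 9 and 12 counts on days 0, 1 and 3 and at 73, 94 and 92 on days 5, 7 and 10. Tail went from 12, 12 and 7 to 45, 57 and 47 counts, whereas trunk ran between 57 and 93 counts throughout with no such step. Early and late libraries did not overlap in head or in tail. The corresponding log2 fold change of late against early was 3.57 ± 0.42 (adjusted p = 0.000516) in head and 2.12 ± 0.42 (adjusted p = 0.00566) in tail. In trunk it was 0.07 ± 0.31 (adjusted p = 0.990), and the change differed between fragments (adjusted p = 0.00933). Without head day 3 the head value was 4.31, with the other early head libraries at 0 and 9 counts.

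FoxC1-B (DN15659, closest to forkhead box C2) had 1.31, 1.28, 0.391, 2.08, 1.65 and 1.23 normalised CPM in head on days 0 to 10, 0.613, 1.12, 0.816, 0.786, 0.551 and 0.559 in trunk, and 0.168, 0.192, 0.162, 1.41, 1.86 and 1.01 in tail. In tail it held 2, 3 and 2 counts early and 19, 27 and 16 late, with no overlap, and the log2 fold change was 2.97 ± 0.59 (adjusted p = 0.00536). The head and trunk values overlapped between early and late days. The test of the difference between fragments had an adjusted p of 0.0611.

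Sox-2 (DN7367), whose values stand above, rose in tail from 4.23 on early to 10.1 normalised CPM on late days, without overlap (log2 fold change 1.25 ± 0.22, adjusted p = 0.00202). In the tail, 7 neuronal marker unigenes of 36 rose and 0 fell, beside 3.14% and 1.45% of all unigenes. The summed level of the 36 markers was 754.5 to 863.6 early and 974.9 to 1282 late. The part of these markers in the Sox-2 values was not tested. Sox-2 also changed with day over all fragments (adjusted p = 0.0419), a call lost on leaving out any of 13 libraries (adjusted p 0.0520 to 0.0876) and kept without head day 0, 1 or 7, trunk day 10 or tail day 10.

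Sox-21-A (DN12130, closest to SOXB2-1 of Schmidtea polychroa), of the SoxB2 group that acts against SoxB1 in vertebrate neurogenesis, had 1.18, 1.68, 1.66, 1.93, 1.33 and 1.94 normalised CPM in head on days 0 to 10, 0.409, 0.438, 0.867, 0.629, 1.21 and 1.28 in trunk, and 0.504, 0.255, 0.243, 1.04, 0.965 and 2.65 in tail. Tail held 6, 4 and 3 counts early and 14, 14 and 42 late, with the last far above the rest (log2 fold change 2.25 ± 0.55, adjusted p = 0.0233). Without tail day 10 the value was 1.60, and the call was lost without tail day 1, 3 or 10 (adjusted p 0.0807 to 0.176). Head was above trunk on 6 of 6 days (log2 fold change 1.06 ± 0.33, adjusted p = 0.0157).

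NR2E1 (DN38193), of the tailless group known from neural stem cells of mice, had 0.590, 0.392, 1.12, 0.809, 1.02 and 0.991 normalised CPM in head on days 0 to 10, 0.307, 0.0974, 0.153, 0.209, 0.937 and 0.559 in trunk, and 0.168, 0.192, 0.649, 1.19, 1.72 and 1.51 in tail. In tail it went from 2, 3 and 8 counts to 16, 25 and 24, with no overlap (log2 fold change 2.15 ± 0.58, adjusted p = 0.0368). The call was lost without tail day 0, 1, 7 or 10 (adjusted p 0.103 to 0.146), and the value was 2.99 without tail day 3. This unigene reached 1 CPM in 6 libraries, all of head or tail, so its differences from trunk are not independent of the level filter. Trunk was below head (log2 fold change of head against trunk 1.17 ± 0.37, adjusted p = 0.0169, lost without head day 3 or trunk day 3 or 5, adjusted p 0.0537 to 0.0553) and below tail (log2 fold change of trunk against tail -1.27 ± 0.40, adjusted p = 0.0185, lost without trunk day 3 or tail day 5, 7 or 10, adjusted p 0.0521 to 0.0595). A further NR2E1 unigene (DN31852) and an NR2F1-B unigene (DN52758) stayed under the filter, at 0.988 and 0.771 CPM at most.

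FoxK1 (DN113667) was the factor that fell in tail. Its level was 18.1, 18.6, 17.7, 12.6, 16.5 and 17.4 normalised CPM in head on days 0 to 10, 19.9, 25.8, 25.7, 29.3, 19.9 and 26.2 in trunk, and 27.2, 34.9, 39.6, 16.6, 19.4 and 19.1 in tail. The 3 late tail libraries lay below the 3 early ones (log2 fold change -0.88 ± 0.17, adjusted p = 0.00473), and among the 37 it was the only factor called lower in tail. In head the late values were also below the early ones, by less (log2 fold change -0.23 ± 0.17, adjusted p = 0.600), and in trunk they overlapped. Averaged over days, head was below trunk with no overlap (log2 fold change -0.55 ± 0.16, adjusted p = 0.0130) and below tail on 6 of 6 days (log2 fold change -0.59 ± 0.16, adjusted p = 0.00951). The last value turned to 0.11 with library totals. In the same tail libraries 3 of 8 intestinal marker unigenes fell and 1 rose, beside 1.45% and 3.14% of all unigenes. The summed level of the 8 went from between 816.6 and 904 to between 406.7 and 605.1. Its part in the FoxK1 values was not tested.

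**Figure D4:**
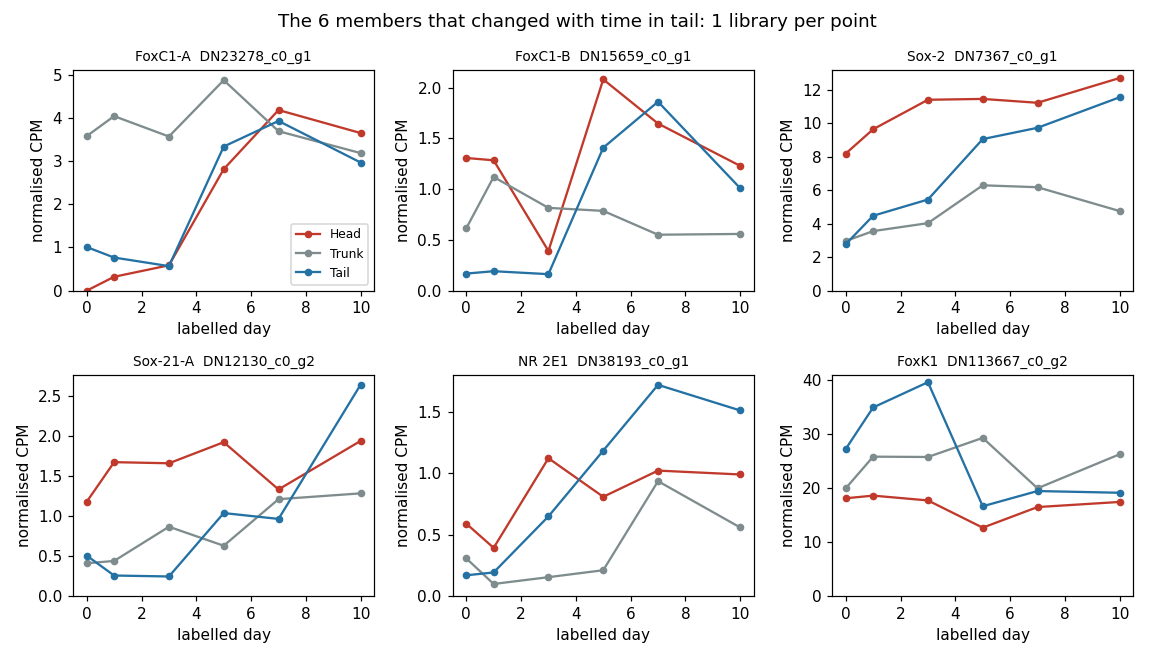
Normalised CPM (y axis, from 0) by labelled day (x axis) in head, trunk and tail for the 6 factors that changed in tail between early and late days; each point is 1 library. FoxC1-A steps up between days 3 and 5 in head and tail and not in trunk, and FoxK1 DN113667 steps down in tail between the same days.

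FoxD3 (DN27024), described above, had a change that differed between fragments (adjusted p = 0.0483). Its log2 fold change of late against early was -0.39 ± 0.34 (adjusted p = 0.667) in head, 3.58 ± 0.98 (adjusted p = 0.330) in trunk and 1.79 ± 0.56 (adjusted p = 0.0702) in tail, of which none passed the test. The trunk value rests on 2, 0 and 0 counts on early days and 9, 8 and 9 on late days. The difference held on leaving out head day 5, tail day 3 or tail day 5, and was lost on leaving out any of the other 15 libraries (adjusted p 0.0531 to 0.109).

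Of the factors that changed with day over all fragments, TBX3 DN17869 (adjusted p = 0.00925) was lowest on day 1 in every fragment. Its highest value was on day 10 in every fragment. The GATA-3 unigene DN9333 (adjusted p = 0.0163) was 2.28, 2.32, 4.06, 5.70, 4.36 and 5.23 normalised CPM in head on days 0 to 10, 2.30, 2.87, 4.28, 4.03, 3.42 and 3.18 in trunk, and 1.68, 2.04, 4.46, 5.26, 4.62 and 3.79 in tail. Days 0 and 1 were below all later days in every fragment, and the call was lost without head day 0 (adjusted p = 0.0512). FoxJ1-B DN16636 (adjusted p = 0.0358) was highest on day 10 in all 3 fragments. It was lowest on day 5 in head and trunk and on day 0 in tail, and lost its call without head day 3 or 5, trunk day 0, 3, 5 or 10, or tail day 3, 5 or 10 (adjusted p 0.0503 to 0.112).

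**Figure D5:**
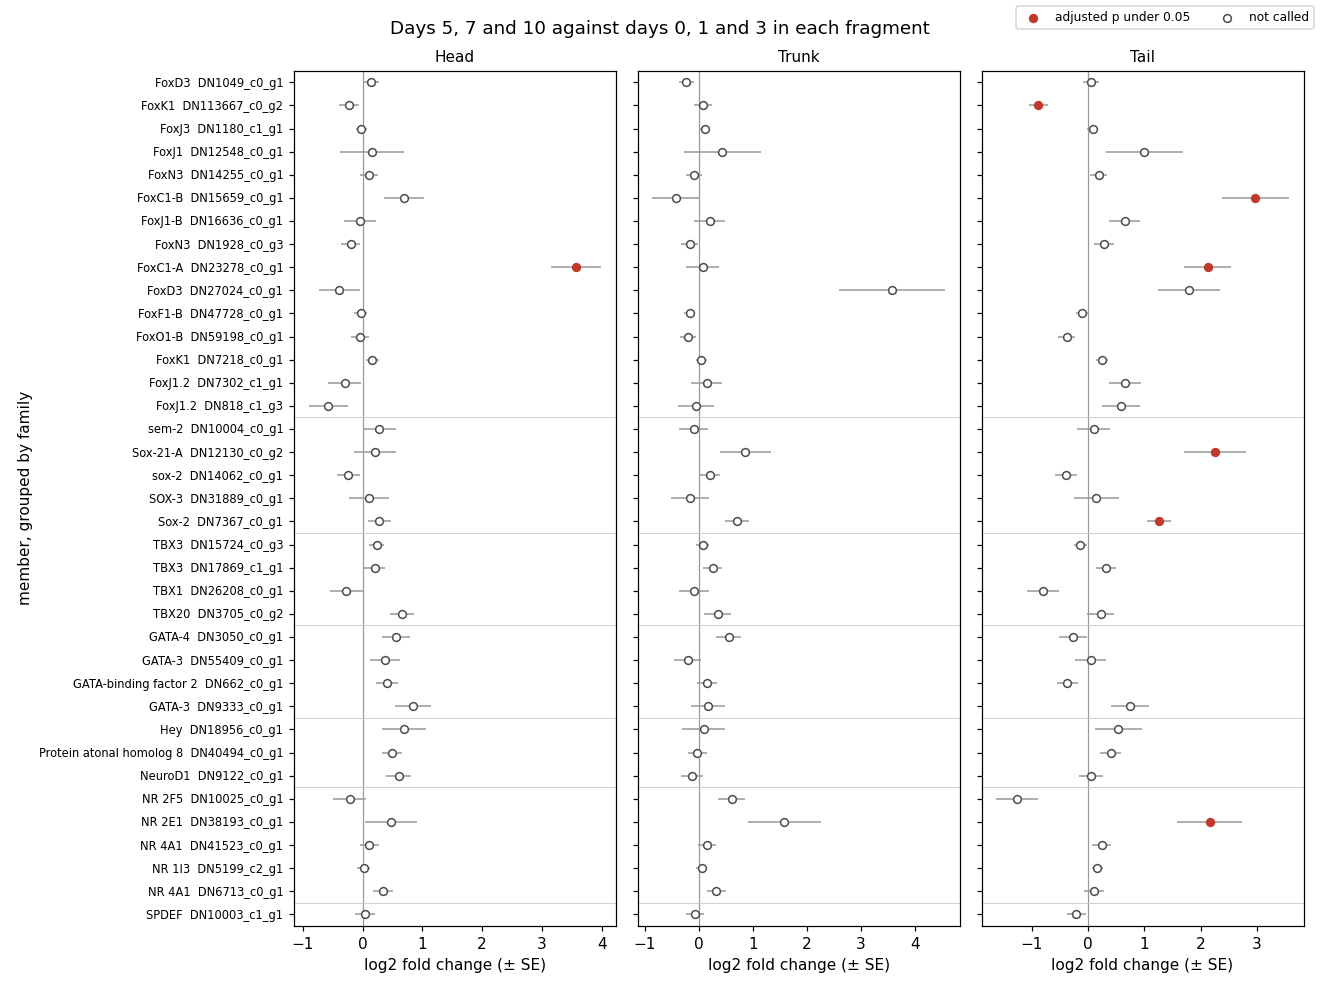
log2 fold change with SE of days 5, 7 and 10 against days 0, 1 and 3 for each factor (rows, by family) in head, trunk and tail (panels, 3 libraries against 3). Filled points have an adjusted p under 0.05. They number 1 in head, 0 in trunk and 6 in tail.

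Across all tests, 5 factors were called in none. The share of all unigenes called in none was not computed, so this count describes no trait particular to the factors. The 5 were FoxO1-B, FoxJ1, FoxJ1.2 DN818, GATA-3 DN55409 and the Hairy-related unigene. FoxJ1.2 DN818 ran from 11.4 normalised CPM in head on day 5 to 47.7 in tail on day 10, and FoxO1-B from 27.8 in tail on day 5 to 45.2 in tail on day 3.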

How the data were processed

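mRNA was sequenced in 18 libraries, 1 per fragment (head, trunk, tail) and labelled day, each from a pool of 10 to 20 animals. Per the labels' protocols RNA was enriched with polyT; per the submitters' processing notes the tools were FastQC, fastp 0.20.0, Bowtie2 and RSEM. The deposited table holds raw counts of each unigene beside protein descriptions; these counts are whole numbers, so RSEM estimates may have been rounded before deposit. Another 18 columns of per-sample values were not used, and 3 lines held no readable content. The origin of the transcript assembly is not given in these sources.

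Members were matched without regard to case to the recommended Swiss-Prot name, not to alternative names. Such names are the closest protein hits, and paralogs or near-identical copies may share reads. The members and lists were chosen with earlier results of these data known. Testing was limited to unigenes that reached 1 CPM in 3 or more libraries (23616, holding 98.3 to 99.3% of counts). edgeR 4.0.16 (limma 3.58.1, R 4.3.3) fitted quasi-likelihood models with TMM factors (0.679 to 1.51), robustly, at an adjusted p of 0.05. Fragment and any-day tests used fragment plus day (10 residual degrees of freedom); late against early tests used fragment and phase (12). In the former, days that change differently between fragments enter the error; in the latter, the 3 days of a phase stand in for replicates. SE was the log2 fold change divided by the root of F. The test code was run on simulated counts with a single spread and changes only in well-counted unigenes. There the most abundant unigene did not differ between fragments. That run therefore does not bear on factors at a few counts or on the choice of scaling.

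Values in every library are given, per family, for up to 4 members by lowest adjusted p between fragments, 2 on any day and 2 late against early, and partner genes for up to 4 per list; other members are given by means. Members singled out otherwise were chosen after their values were seen. Alternatives were DESeq2 1.42.0 as scaling and test, library totals with and without the most abundant unigene, other filters, no block, early or late days alone, each library left out, and an older edgeR fit (added after seeing the data). Tables and figures used Python 3.11.15, numpy 2.4.6, pandas 2.3.3, the R package data.table (1.17.8) and matplotlib 3.10.9. Floors cover counting error only. No sequences are shown.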

Additional observations from a re-analysis of the deposited data

Results flagged for a closer look

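In 6 of 111 groups of 6 libraries (a factor in a fragment) the highest or lowest library stood apart from the rest by Dixon's test at its 95% critical value, which chance passes in about 1 of 20 groups. FoxK1 DN113667 was lowest in head on day 5, at 12.6 normalised CPM against 16.5 to 18.6 in the other head libraries. FoxN3 DN1928 was highest in head on day 1, at 18.2 against 11.4 to 13.2. Sox-21-A was highest in tail on day 10, at 2.65 against 0.243 to 1.04. GATA-4 was highest in trunk on day 5, at 43.7 against 19.9 to 27.4. NR4A1 DN41523 was lowest in head on day 1, at 12.6 against 16.3 to 18.1. NR1I3 was highest in trunk on day 10, at 47.5 against 40.8 to 43.3.

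The change from early to late days differed between fragments for FoxC1-A (adjusted p = 0.00933 by edgeR's F test) and for FoxD3 DN27024 (adjusted p = 0.0483). The first call held on leaving out each library in turn, and the second was lost in 15 of those 18 cases.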

How the results depend on the processing

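With library totals in place of TMM, 29 factors were called between head and tail, 25 between head and trunk, 13 between trunk and tail and 1 on any day, in place of 16, 20, 21 and 4; of all unigenes, 72.7%, 49%, 45.7% and 4.53% were called. Of 64 called log2 fold changes, 11 changed sign with library totals and 2 with totals without the most abundant unigene. Relative to the median of all unigenes 0 did so. That median moves with the scaling, so this last count was close to fixed in advance and does not bear on the choice of scaling. Among all 70 called results, a further 15 and 11 lost their call without a change of sign, and 44 and 57 stayed called in the same direction. The 11 and 2 with a changed sign had these values. Between head and tail they became 0.11 for FoxK1 DN113667, 0.15 for FoxJ1.2 DN7302, 0.13 for TBX1, 0.14 for NeuroD1, 0.41 for NR4A1 DN6713 and 0.13 for SPDEF. Between head and trunk they became 0.077 (0.14 without the most abundant unigene) for TBX3 DN15724 and 0.10 (0.16) for TBX3 DN17869. Between trunk and tail they became 0.18 for FoxJ3, 0.10 for FoxN3 DN14255 and 0.036 for NR4A1 DN6713.

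With no filter on low counts, where 244611 unigenes were tested, 12 factors were called between trunk and tail, 11 on any day and 4 for the difference of late against early change between fragments (2 in the main analysis), beside 3.37%, 1.78% and 0.39% of all unigenes. DESeq2 as the test called 10 on any day and 5 for that difference, beside 11.9% and 3.97% of all unigenes, and a filter of 1 CPM in 9 libraries called 1 for it (1.58%). Days 0, 1 and 3 alone gave 13 between trunk and tail, and days 5, 7 and 10 alone gave 10 between head and tail, both with fewer libraries (21.7% and 25.2% of all unigenes). Without the replicate block of day, 12, 17 and 17 factors were called in the head-tail, head-trunk and trunk-tail comparisons (34.8%, 36.9% and 31.6% of all unigenes); the shared number is the labelled day, which marks no shared animal in the labels. Leaving out each library in turn gave 12 to 17, 17 to 22 and 17 to 22 for these, 2 to 4 on any day (2 without head day 5, trunk day 3, tail day 3 or tail day 5), 1 late in head, 0 late in trunk, 4 to 9 late in tail and 1 to 3 for the difference. The same fits called 34.5 to 39.5%, 37.3 to 42.2% and 30.8 to 38.1% of all unigenes between fragments, and 2.47 to 6.55% on any day. Late against early they called 0.102 to 2.02% in head, 0 to 0.0296% in trunk and 2.2 to 6.72% in tail. For the difference it was 0.339 to 3.58%. The 9 late in tail came from the fit without tail day 5, where 6.72% of all unigenes were called. Of 70 called results, 49 kept their call in every such fit and 21 lost it in at least 1. Causes of these changes were not tested. Some factors held only a few counts in part of the libraries. Counts ran from 0 to 94 for FoxC1-A, 2 to 54 for FoxC1-B, 0 to 64 for FoxD3 DN27024 and 2 to 25 for NR2E1. The part of depth in their values was not tested.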

Other observations

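A further 12 tested unigenes carry a nuclear receptor name only among their alternative names, and this list was formed after the names were seen. Of these, 0 were higher and 2 lower in head than in tail, 6 higher and 4 lower in head than in trunk, and 2 higher and 5 lower in trunk than in tail, where 39.2%, 42.3% and 36.7% of all unigenes were called. Hepatocyte nuclear factor 4-gamma (DN10672), whose planarian relative is expressed in intestine, had 55.7 ± 4.78 normalised CPM in head, 93.2 ± 14.2 in trunk and 49.5 ± 11.1 in tail (n = 6), with a log2 fold change for trunk against tail of 0.93 ± 0.11 (adjusted p = 1.1e-05). Vitamin D3 receptor (DN9174) had 10.3 ± 2.73, 32.0 ± 11.9 and 9.95 ± 2.51 in the same order, with a log2 fold change for trunk against tail of 1.69 ± 0.20 (adjusted p = 2.25e-05). Protein tailless (DN5863, closest to TLX-1 of S. mediterranea) had 15.6 ± 7.02 in head, 3.15 ± 1.47 in trunk and 7.59 ± 3.66 in tail, with a log2 fold change for head against trunk of 2.34 ± 0.47 (adjusted p = 0.00184). Its late against early change differed between fragments (adjusted p = 0.0235).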
